A study of Mus musculus with 6 samples.

Results

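Genes that mark the hippocampus were examined in the cerebral cortex of SAMP8 and SAMR1 mice. The set comprised Prox1, Dsp, Tdo2, C1ql2, Lct and Spink8, and was chosen with earlier results of these data known. Its probe sets were found by gene symbol: every probe set whose symbol entry held 1 of these names was taken. This gave 12 of the 45077 probe sets and 6 of the 22527 genes on the array. On this array a transcript is read by a set of short probes, and some genes have more than 1 such set. Prox1, Dsp and Tdo2 were read by 3 probe sets each, and C1ql2, Lct and Spink8 by 1 each.

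The samples were cortices of 6 male mice, 2 in each of 3 groups, labelled as 16 weeks old. Acclimatization, administration and behavioral testing all came before the cortices were taken. If 16 weeks is the age at the start, the mice were older when the tissue was taken. SAMP8, a senescence-accelerated strain, received sugarcane top ethanolic extract (STEE) by mouth at 20 mg/kg (SAMP8 + STEE) or the same volume of water (SAMP8 + Water), and SAMR1, the senescence-resistant strain, received water (SAMR1 + Water). Administration lasted 30 days and went on through 8 days of behavioral testing in all groups, and the mice of every group were also given the thymidine analog BrdU in their drinking water and housed singly. The 2 strains differ across their genomes, so SAMR1 is a control for strain and not for a single allele. Whether the hippocampus was removed before the cortex was homogenized is not given in the sources used here.

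The authors summarised the arrays with RMA and deposited the mean log2 signal of each group. All levels below are these group means, all differences are differences between group means on the log2 scale, and a log2 difference of -1.0 is a halving of the signal. Values of single mice were not used, so no error, p-value or test stands behind any difference. Many differences are set instead beside the share of all probe sets or genes that were as far apart, though some single genes are given without one. The group means are rounded to 2 decimals, which alone can move a difference by 0.01. The medians of all probe sets were 4.16 in SAMR1 + Water, 4.15 in SAMP8 + Water and 4.15 in SAMP8 + STEE.

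The dentate gyrus is the part of the hippocampus that receives most of the input from the entorhinal cortex and that keeps making neurons, the granule cells, in adult rodents. Granule cells are marked by the transcription factor Prox1, which they need for their identity, and their axons, the mossy fibers, contact pyramidal cells of CA3. Dsp, Tdo2, C1ql2 and Lct are used as granule cell markers, and Spink8 as a marker of CA1 pyramidal cells. The markers differ in how particular they are to the hippocampus: Prox1 is also made in some cortical interneurons, in the thalamus and in the oligodendrocyte lineage.

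The 6 genes do not all lie on 1 chromosome, and the promoters found were of more than 1 type. In the RefSeq annotation of GRCm38.p6, 3 of them, C1ql2 (120340582 to 120343174), Lct (128284756 to 128328318) and Prox1 (190118035 to 190170827), lie on chromosome 1. These 3 are among the 4 genes with a probe set more than 0.3 lower in SAMP8 + Water than in SAMR1 + Water. The part of their shared chromosome in this was not tested. Tdo2 lies on chromosome 3 (81958412 to 81975728), Spink8 on chromosome 9 (109812203 to 109826628) and Dsp on chromosome 13 (38151294 to 38198577). RefSeq promoter windows from 250 bases before to 50 bases after the gene start were found for Prox1 (2 starts), Dsp, Tdo2, C1ql2 and Lct. The 120 bases before the start are shown for the 4 genes with a probe set more than 0.3 lower in SAMP8 + Water than in SAMR1 + Water, 5′ to 3′ on the strand of the gene, for Prox1 at its upstream start, with capitals marking a match to TATAAA.
Prox1, chr1:190170828-190170947, minus strand: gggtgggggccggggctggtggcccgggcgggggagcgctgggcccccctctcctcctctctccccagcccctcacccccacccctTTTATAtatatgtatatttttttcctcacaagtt
Dsp, chr13:38151174-38151293, plus strand: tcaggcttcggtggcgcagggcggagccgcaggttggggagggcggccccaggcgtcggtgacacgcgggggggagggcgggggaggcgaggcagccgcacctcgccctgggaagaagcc
C1ql2, chr1:120340462-120340581, plus strand: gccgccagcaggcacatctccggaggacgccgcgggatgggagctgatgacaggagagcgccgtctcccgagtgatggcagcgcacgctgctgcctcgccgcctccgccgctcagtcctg
Lct, chr1:128328319-128328438, minus strand: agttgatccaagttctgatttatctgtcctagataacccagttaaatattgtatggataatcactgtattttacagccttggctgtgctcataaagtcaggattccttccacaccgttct

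The windows of Dsp and C1ql2 and the upstream window of Prox1 were rich in CpG dinucleotides, with 27, 23 and 25 in 300 bases, whereas that of Lct held 1 and that of Tdo2 held 4; the median over 32851 promoters was 7. Both kinds of promoter were thus present among the genes with lower signal in SAMP8. In all, 4 motifs were searched on both strands. TATAAA, the TATA box, was held by 13.6% of all promoters and was found in the upstream Prox1 window, on the opposite strand 34 bases before the start, and in the Tdo2 window on the strand of the gene 229 bases before it. CAGATG, an E-box read by neurogenic bHLH factors and held by 17.2% of all promoters, was found in the upstream Prox1 window. TGACGTCA (1.79% of all promoters) and TGANTCA (7.81%) were in none of the 6 windows.

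Most of the markers had signals in the low part of the range of the array. In 10 of the 12 probe sets all 3 group means lay below 4.23, the median over all probe sets of the highest group mean; C1ql2 and Spink8 were the exceptions. The levels of different probe sets depend on their probes, so a difference in level between them need not be one in transcript. No detection calls were used here, so a low signal does not say that the transcript was absent. By contrast, all 12 genes of a list of cortical layer and pyramidal neuron markers, among them Mef2c, Bcl11b and Rasgrf2, had a group mean at or above that median. The dimmest of them was Emx1, with 4.60, 4.75 and 4.74.

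**Figure D1:**
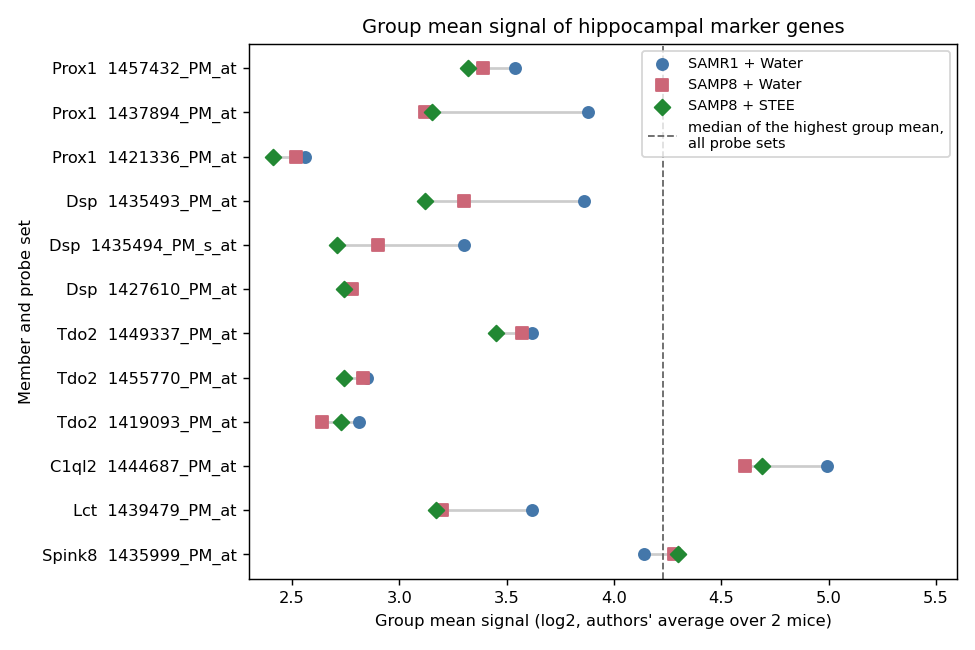
Group mean signal (log2, horizontal axis) of the 12 probe sets of the 6 genes (vertical axis) in SAMR1 + Water (circles), SAMP8 + Water (squares) and SAMP8 + STEE (diamonds); each symbol is the authors' average over 2 mice and no spread is drawn. SAMR1 + Water stands to the right of both SAMP8 groups by 0.30 or more for 2 of 3 Dsp probe sets, 1 of 3 Prox1 probe sets, C1ql2 and Lct, while the Tdo2 and Spink8 means lie closer together.

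The first comparison, SAMP8 + Water against SAMR1 + Water, asks how the strains differ. Signals of dentate markers were lower in SAMP8 + Water for Dsp, Lct, C1ql2 and 1 Prox1 probe set, and close between the strains for Tdo2 and Spink8. With each gene read from its brightest probe set (the one whose signal, averaged over the groups, is highest), 5 of the 6 genes were lower in SAMP8 + Water and 1 was higher, where 49.1% of all genes were lower, with a median difference of -0.265 against 0.00 over all genes. Over the 12 probe sets of the set taken singly, 10 were lower, as were 49.6% of all probe sets, and their median was smaller in size, at -0.16. A difference of -0.5 or beyond was seen in 2 of the 12 probe sets, and 0.575% of all probe sets were that much lower. At -0.3 or beyond there were 5 of 12, against 2.5% of all probe sets. Because the set was chosen with earlier results of these data known, such shares are description only.

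Most of these probe sets were dim, and differences of this size made up a smaller share of the dim probe sets of the array than of all. Among the 22476 probe sets with all group means below 4.23, 0.147% were lower in SAMP8 + Water by at least 0.5 and 0.903% by at least 0.3. Of the 10 probe sets of the set in that range, 2 and 4 were. The limit drops any probe set that reaches 4.23 in SAMR1 + Water alone, so it can lower these shares by itself. They are therefore no measure of how rare such differences are at low signal. Probe sets of 1 gene read the same transcript from the same mice and are not independent of each other. In whole tissue, fewer cells of a type and less RNA per cell cannot be told apart.

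Dsp encodes desmoplakin, which ties intermediate filaments to desmosomes and in the brain is best known from granule cells. Its brightest probe set (1435493_PM_at) had group means of 3.86 in SAMR1 + Water, 3.30 in SAMP8 + Water and 3.12 in SAMP8 + STEE. The SAMP8 groups both lay below SAMR1, by -0.56 and -0.74. A second probe set designed from the same transcript cluster (1435494_PM_s_at) ran the same way, with 3.30, 2.90 and 2.71 and differences from SAMR1 of -0.40 and -0.59. The third (1427610_PM_at), from another cluster, was flat at 2.75, 2.78 and 2.74. The Dsp result therefore rests on the pair that shares a design.

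Prox1 gave different answers by probe set. One (1437894_PM_at) had group means of 3.88 in SAMR1 + Water, 3.12 in SAMP8 + Water and 3.15 in SAMP8 + STEE, so that both SAMP8 groups were lower, by -0.76 and -0.73. This strain difference lay at percentile 0.219 of all probe sets. Another (1457432_PM_at), whose mean signal of 3.42 was just above the 3.38 of the former, had 3.54, 3.39 and 3.32, a strain difference of -0.15. The remaining one (1421336_PM_at) had 2.56, 2.52 and 2.41 and lay at the bottom of the array's range. All 3 were lower in SAMP8 + Water than in SAMR1 + Water, with a mean of -0.317, but the size of the Prox1 difference depended on which was read.

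C1ql2 is a secreted C1q-like protein that mossy fibers release at their synapses, where it takes part in gathering kainate receptors. Its single probe set (1444687_PM_at) had group means of 4.99 in SAMR1 + Water, 4.61 in SAMP8 + Water and 4.69 in SAMP8 + STEE. Both SAMP8 groups were lower, by -0.38 and -0.30, and the strain difference lay at percentile 1.22 of all probe sets. Lct encodes lactase, the enzyme of the intestinal brush border that splits milk sugar, and is used as a granule cell marker in mouse brain. Its single probe set (1439479_PM_at) had 3.62, 3.20 and 3.17 in the same order, with differences from SAMR1 of -0.42 and -0.45. The Lct strain difference lay at percentile 0.932 of all probe sets.

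Tdo2, tryptophan 2,3-dioxygenase, opens the ring of tryptophan at the head of the kynurenine pathway. Its brightest probe set (1449337_PM_at) had group means of 3.62 in SAMR1 + Water, 3.57 in SAMP8 + Water and 3.45 in SAMP8 + STEE. The strain differences of its 3 probe sets were -0.05, -0.02 and -0.17, which lay at percentiles 33.7, 44.0 and 9.13 of all probe sets. Spink8, a Kazal-type serine protease inhibitor and the only CA1 marker of the set, had 4.14 in SAMR1 + Water, 4.28 in SAMP8 + Water and 4.30 in SAMP8 + STEE (1435999_PM_at). It was the only one of the 6 genes that was higher in SAMP8 + Water at its brightest probe set, by 0.14, at percentile 88.2 of all probe sets.

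**Figure D2:**
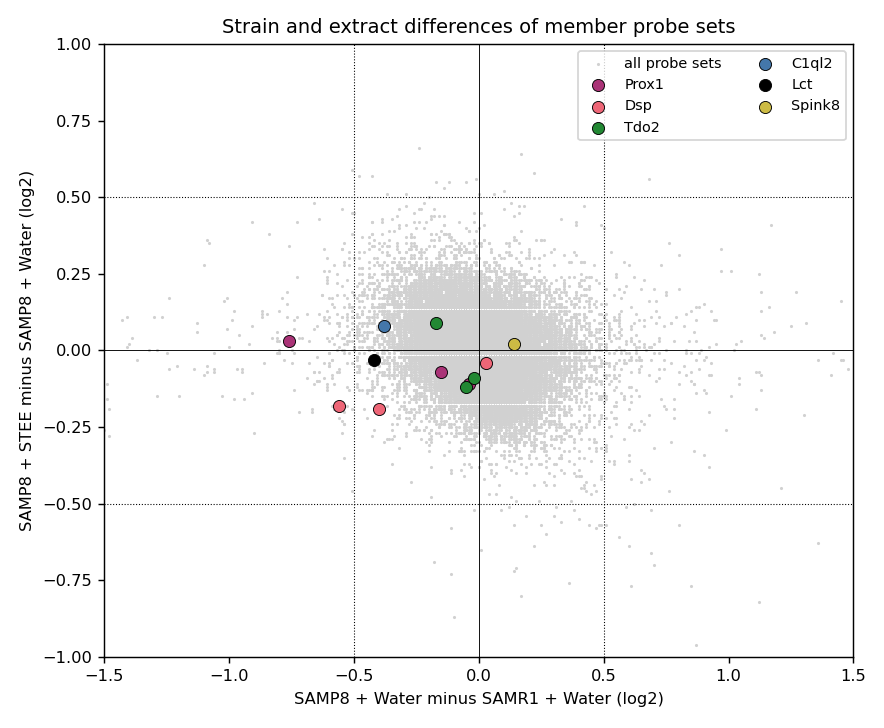
Strain difference (SAMP8 + Water minus SAMR1 + Water, horizontal axis) against extract difference (SAMP8 + STEE minus SAMP8 + Water, vertical axis), both in log2, for the 12 probe sets (large points, coloured by gene) over all probe sets (grey, with 56 outside the axes); dotted lines mark 0.5 in either direction. Points of Lct, C1ql2, 1 of 3 Prox1 and 2 of 3 Dsp probe sets spread to the left, from -0.76 to -0.38, the other Prox1 and Dsp points lie between -0.15 and 0.03, and none of the 12 passes 0.5 vertically.

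The second comparison, SAMP8 + STEE against SAMP8 + Water, asks how the extract-fed mice differed from their controls. No member differed by as much as 0.5. The differences ran from -0.19 to 0.09 over the 12 probe sets, 8 of which were lower with STEE, and 48.1% of all probe sets were lower. The median over the 6 genes was -0.05. Lower values by at least 0.5 were rare in this comparison, at 0.104% of all probe sets and 0.151% of genes, and 0.0932% of genes were higher by as much.

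Dsp had the 2 lowest values of the set with STEE, -0.18 and -0.19, at percentiles 3.69 and 3.16 of all probe sets. C1ql2 was 0.08 higher with STEE, Prox1 at the probe set with the large strain difference was 0.03 higher, Lct was 0.03 apart in the other direction, at -0.03, and Spink8 was 0.02 higher. At the probe sets of Prox1, Dsp, Lct and C1ql2 with the lower SAMP8 + Water signal, the STEE means also lay below those of SAMR1. Both comparisons use the same SAMP8 + Water mice, so the differences of the first and the second are not independent.

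Set directly against each other, SAMP8 + STEE and SAMR1 + Water share no mice. This difference is the sum of the first and the second, and it uses the same SAMR1 + Water means as the first. It is therefore not independent of either. Of the 12 probe sets, 11 were lower in SAMP8 + STEE, as were 52.4% of all probe sets, and 3 were lower by at least 0.5, as were 0.619% of all probe sets. These were the Prox1 probe set at -0.73 and the Dsp pair at -0.74 and -0.59. Of the 6 genes, 5 were lower at their brightest probe set, as were 51.5% of all genes, with a median of -0.26 against -0.01 over all genes.

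Other markers of the hippocampus, each read from its brightest probe set, did not all follow. Over all genes, 0.55% were lower and 1.03% higher in SAMP8 + Water by at least 0.5, and 0.577% were lower and 1.09% higher in SAMP8 + STEE than in SAMR1 + Water. Of 10 further granule cell genes, such as Dock10, Trpc6 and Calb1, 4 were lower and 6 higher in SAMP8 + Water, none by 0.5, with a median of 0.07. With each gene taken as the mean over its probe sets, the balance turned to 7 lower and 3 higher, with a median of -0.009. Calb1 was 0.20 higher at its brightest probe set but lower at 3 of its 4. The 6 CA1 genes had a median of -0.055 and the 4 CA2 genes on the array 0.22, again none past 0.5. The 8 CA3 genes had a median of -0.065, with St18 lower by -0.60 (-0.365 as the mean over its probe sets) and Coch higher by 0.52. The granule cell list as a whole did not show the lower signal of Dsp, Lct and C1ql2. Its 4 lower genes, against 6 higher, were Ntf3 (-0.23), Plk5 (-0.22), Glis3 (-0.11) and Trpc6 (-0.04). The largest difference of the list was upward, in Lrrtm4, at 0.45, or 0.205 as the mean over its probe sets. Lrrtm4 was also 0.58 higher in SAMP8 + STEE than in SAMR1 + Water, or 0.395 as that mean. In 7 of the 10 genes a group mean reached 4.23, and how much of that signal came from granule cells was not tested.

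Of 4 genes found across hippocampal fields, 3 were lower in SAMP8 + Water, with a median of -0.25. Cabp7, a neuronal calcium-binding protein, had group means of 6.84 in SAMR1 + Water, 5.74 in SAMP8 + Water and 6.02 in SAMP8 + STEE, and its strain difference of -1.10 was the only one of the 4 past 0.5. Both of its probe sets were lower in SAMP8 + Water, with a mean of -0.70. Nr3c2, the mineralocorticoid receptor, had 6.97, 6.62 and 6.63.

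Genes of immature neurons were examined because the dentate gyrus makes neurons in the adult. All 8 were lower in SAMP8 + STEE than in SAMP8 + Water at their brightest probe sets, with a median of -0.255, and 2 were lower by at least 0.5, where 46.9% of all genes were lower and 0.151% by that much. With the mean over the probe sets of a gene, 7 were lower, the median was -0.136, and Neurod1 was 0.04 higher. Calb2, the calcium-binding protein calretinin, made by young granule cells and by interneurons, had group means of 6.94 in SAMR1 + Water, 6.83 in SAMP8 + Water and 6.10 in SAMP8 + STEE, a difference of -0.73 with STEE. Eomes, a transcription factor of intermediate progenitors that is also made in olfactory bulb neurons, had 4.19, 4.75 and 4.14, a difference of -0.61. Dcx, doublecortin, was lower by -0.29, with 3 of its 4 probe sets lower and 1 higher. Sox11 was lower by -0.22, with 3 of its 5 probe sets lower and 2 higher. Between the strains the list had a median of -0.005, with 4 genes lower and 4 higher in SAMP8 + Water. Only Eomes was past 0.5, at 0.56 higher (0.585 as the mean over its probe sets). Its SAMP8 + STEE mean thus lay near that of SAMR1 + Water.

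Most partners of single members differed by less than 0.5. Between the strains, 0.55% of all genes were lower and 1.03% higher by at least that much. Of 10 kynurenine pathway genes on the array beside Tdo2, 1 differed by 0.5 between the strains: Ido1, the other enzyme that opens the ring of tryptophan, was 0.60 higher in SAMP8 + Water, with group means of 4.61, 5.21 and 5.09. None of the 12 C1q-like ligands, cerebellins and their receptors differed by 0.5 between the strains, including the C1ql2 relative C1ql3, at 9.28, 9.41 and 9.44. Cbln4 was 0.41 higher in SAMP8 + Water and 0.70 higher in SAMP8 + STEE than in SAMR1 + Water. The 9 desmosome genes on the array beside Dsp, Jup and plakophilins among them, ranged from -0.23 to 0.08 between the strains. Dsp at its brightest probe set was thus the only desmosome gene past 0.5, but the mean over its 3 probe sets was -0.31.

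Markers of neighbouring tissue also differed between the strains, where 0.55% of all genes were lower and 1.03% higher by at least 0.5. All 7 thalamus genes were lower in SAMP8 + Water (median -0.31, 3 past 0.5), as were all 7 myelin genes (median -0.34, 1 past 0.5) and 8 of 9 choroid plexus genes (median -0.18, or -0.31 with the mean over probe sets, 1 past 0.5), whereas all 8 striatum genes were higher (median 0.52, 4 past 0.5) and the 3 blood probe sets lay between -0.08 and 0.08. Tcf7l2, a transcription factor of the thalamus, was lower by -0.97, and Ttr, the transthyretin of the choroid plexus, by -1.96. Only 3 of the 9 choroid plexus genes had a group mean at or above 4.23, so most of that list was dim. Cortical layer genes had a median of 0.125. The part of these tissues in the lower Prox1, Dsp, C1ql2 and Lct signals was not tested. With STEE, medians of these lists lay between -0.04 and 0.095, and Ttr was 1.09 higher.

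**Figure D3:**
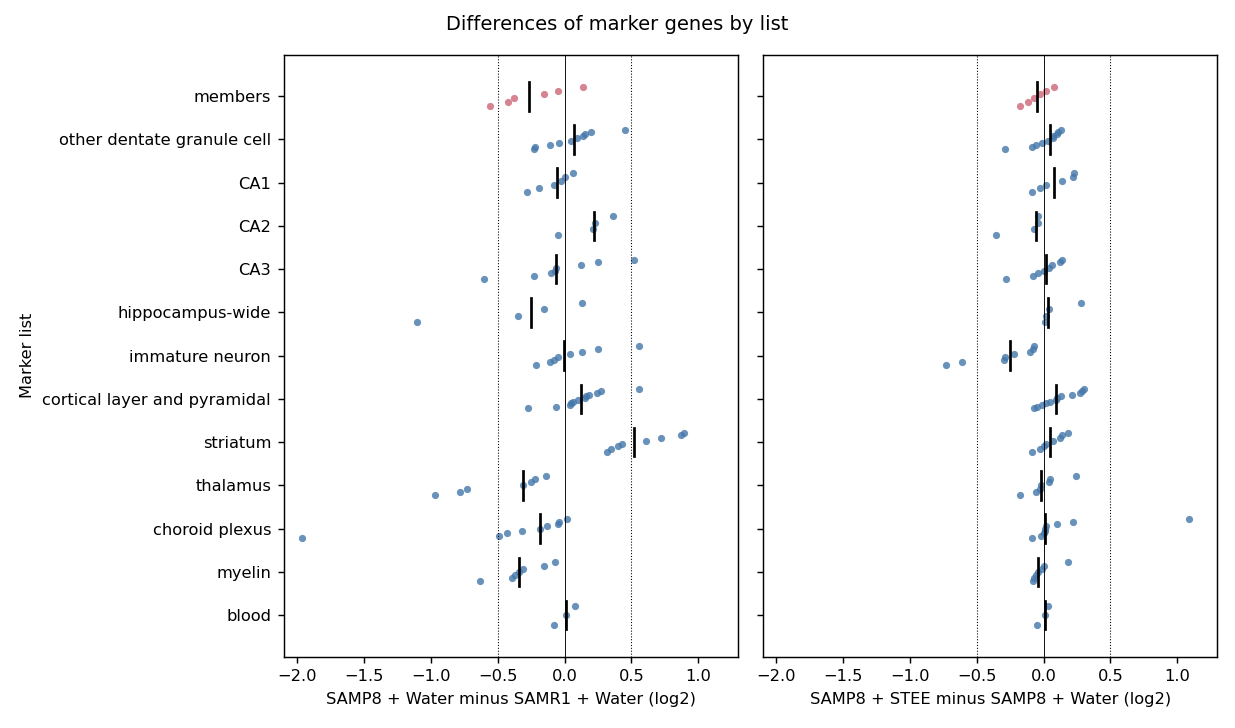
Differences (log2, horizontal axes) of SAMP8 + Water minus SAMR1 + Water (left) and SAMP8 + STEE minus SAMP8 + Water (right) for the genes of 13 marker lists (vertical axis); each point is a gene at its brightest probe set, black bars are list medians and dotted lines mark 0.5. The members (red) have a median of -0.265 on the left and -0.05 on the right, striatum genes stand to the right of 0 on the left panel, and immature neuron genes stand to the left of 0 on the right panel.

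The genes most like a member in pattern were sought among probe sets with 1 symbol and a group mean at or above 4.23, by the distance between their strain and STEE differences. This likeness rests on 3 group means. Nearest to Dsp (1435493_PM_at) were Igsf1 (distance 0.022), Aspa (0.030) and Car2 (0.030), the last pair known from oligodendrocytes. Igsf1, with 4.50, 3.92 and 3.73, reached 4.23 only in SAMR1 + Water, the group where it was highest, as did Pank3 among the genes near Prox1. With the limit set instead on the mean of the 3 groups, at 4.15, Abca8a (0.040) took the place of Igsf1 and Sparc (0.040) that of Pank3, a choice made after the values were seen. Aspa had 6.69, 6.10 and 5.92 in SAMR1 + Water, SAMP8 + Water and SAMP8 + STEE. The Prox1 probe set with the large difference, chosen after its values were seen, was nearest to Stk3 (0.014), Golga7b (0.020) and Pank3 (0.032).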

How the data were processed

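Cortical RNA was labelled and hybridised to Affymetrix PM array strips for the mouse genome, with 1 array for each sample. The authors summarised the probes with RMA in Affymetrix Expression Console and averaged the arrays of each group in Transcriptome Analysis Console. The values used here are the log2 group means that the authors deposited, named bi-weight averages per the file headers, in 2 tables that both give SAMP8 + Water, identically. The tables also hold the authors' linear fold changes, ANOVA p-values and FDR p-values, which were not used. No per-mouse value entered, so neither the spread between mice nor the depth behind a mean is known, and no test was made. With 2 arrays a group, the precision of each mean is limited by their number.

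Differences between group means were taken with Python 3.11.15, numpy 2.4.6 and pandas 2.3.3, and figures were drawn with matplotlib 3.10.9. The calculation was tested on simulated data. No filter on low values was applied, and 5694 probe sets had no symbol. Entries with several symbols were counted under each. A gene was read from its probe set with the highest mean signal. A difference of 0.5 on the log2 scale was the threshold. The 6 members and the 15 other lists (further granule cell, CA1, CA2, CA3, hippocampus-wide, immature neuron, cortical, striatum, thalamus, choroid plexus, myelin, blood, kynurenine, C1q-like and desmosome genes) were chosen with earlier results of these data known. Named were all probe sets of the members, up to 4 genes past the threshold per list, and the 3 genes nearest in pattern to a member past it. Genes of a list without that difference were named as examples after their values were seen. Some listed genes are not reported here and were left out of their lists' counts and medians. Older array symbols (Nov, Pvrl3, Drd1a, Ccbl1, Ccbl2 and Bai3) were matched to the current ones. Alternatives were the mean over probe sets, each probe set, centring or quantile-matching of the group columns, other thresholds and a filter on low signal.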

Additional observations from a re-analysis of the deposited data

How the results depend on the processing

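The median difference of the 6 members between SAMP8 + Water and SAMR1 + Water was -0.265, and it was -0.313 with the mean over the probe sets of a gene, -0.255 after centring and -0.25 after quantile-matching of the group columns. Taken over all 12 probe sets singly it was -0.16, a move of more than 0.1. The medians with STEE moved by less than 0.1 under each of these alternatives. For single members, none of 36 values moved by 0.1 or more with centring or quantile-matching, 4 of 18 did with the mean over probe sets, and 10 of 18 moved by that much with another probe set. Another probe set turned the sign of 3 values: Dsp, lower by -0.56 between the strains, was 0.03 higher at 1427610_PM_at, and with STEE Tdo2 went from -0.12 to 0.09 and Prox1 from -0.07 to 0.03. The number of genes of the other lists past the threshold, of 117, went from 15 to 31 at 0.3 and 2 at 1.0 between the strains, from 3 to 6 and 1 with STEE against water, and from 16 to 36 and 1 between SAMP8 + STEE and SAMR1 + Water. With the mean over the probe sets of a gene the numbers were 13, 3 and 12. A filter on the highest group mean left 15, 3 and 16, but it can keep a gene through the group where it is high, as with Eomes, and a filter on the mean of the groups, chosen after seeing the data, left 15, 3 and 15. No paired analysis was possible because only group means were used, and for the same reason no mouse could be left out. Signal over background limits most members, whose means lie in the low part of the array's range.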
